A study of Mus musculus with 64 samples.

Results

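The 10 genes described here, Ttr, Folr1, Kl, Clic6, Enpp2, Kcnj13, Otx2, Aqp1, Sostdc1 and Prlr, are markers of the choroid plexus, and they were found by gene symbol in the tables of both hippocampal regions. All 10 were present among 18283 genes of the dorsal hippocampus (dHPC) and among 21088 genes of the ventral hippocampus (vHPC). The libraries came from C57BL/6 mice, WT or hMet (heterozygous for the BDNF Val66Met allele), of both sexes. Mice drank vehicle (1% ethanol) or corticosterone (CORT, 25 mg/l in 1% ethanol) for 6 weeks from 2 months of age, so the ethanol was common to all groups. The labels list 64 libraries in 16 groups of 4, and each library pooled RNA from 2 animals. One passage of the labels speaks of fewer replicates and the series design of a shorter treatment.

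The values were the authors' mean log2 CPM of a gene (its read count scaled by the size of the library) over all libraries of a region, and the degrees of freedom of the authors' fit of that region. Sexes, genotypes and treatments are averaged in these means, so the levels below belong to a region and to no group, and the response to CORT is not described. No value per library was used, so the levels carry no error and no difference between the regions was tested.

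The choroid plexus is a fold of vascular tissue covered by secretory epithelium that hangs in the brain ventricles, makes cerebrospinal fluid and forms a barrier between blood and fluid. That of the lateral ventricle is attached along the fimbria, at the edge of the hippocampus, and a dissected hippocampus can carry pieces of it. Its epithelium is the main source of transthyretin in the brain. In bulk tissue fewer cells of a type and less RNA per cell cannot be told apart, and this holds for every level below.

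Promoter sequences of some of these genes are shown, each chosen for a feature of its own. RefSeq windows (GRCm38.p6) from 250 bases before to 50 bases after a transcription start were found for 5 of the 10 genes, 10 windows in all: 4 of Otx2, 3 of Prlr and 1 each of Aqp1, Kcnj13 and Kl. A few of them are printed 5′ to 3′ on the coding strand. Kcnj13 is shown for its TATA box (TATAAA, in capitals, coding strand only), which begins 29 bases before the start at chr1:87394680-87394979 (minus strand). Kl is shown as the most CpG-rich of the 10, with 19 CG pairs in capitals at chr5:150952357-150952656 (plus strand). Otx2 is shown at chr14:48665060-48665359 (minus strand), 1 of its 4 windows, for the letters TAATCC read on either strand, the core motif bound by OTX proteins. In this window they are on the opposite strand, begin 211 bases before the start and appear in capitals as the reverse complement.
Kcnj13: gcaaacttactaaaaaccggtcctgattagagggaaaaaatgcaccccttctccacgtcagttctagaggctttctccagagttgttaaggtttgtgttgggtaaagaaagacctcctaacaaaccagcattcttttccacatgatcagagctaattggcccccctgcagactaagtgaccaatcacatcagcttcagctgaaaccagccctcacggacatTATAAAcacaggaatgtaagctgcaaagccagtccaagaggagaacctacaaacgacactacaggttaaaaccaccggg
Kl: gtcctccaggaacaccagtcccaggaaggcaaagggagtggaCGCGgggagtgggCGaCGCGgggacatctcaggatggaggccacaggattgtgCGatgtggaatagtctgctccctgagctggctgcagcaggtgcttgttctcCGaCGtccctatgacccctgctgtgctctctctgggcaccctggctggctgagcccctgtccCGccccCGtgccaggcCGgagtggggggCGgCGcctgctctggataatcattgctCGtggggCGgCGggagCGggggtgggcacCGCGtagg
Otx2: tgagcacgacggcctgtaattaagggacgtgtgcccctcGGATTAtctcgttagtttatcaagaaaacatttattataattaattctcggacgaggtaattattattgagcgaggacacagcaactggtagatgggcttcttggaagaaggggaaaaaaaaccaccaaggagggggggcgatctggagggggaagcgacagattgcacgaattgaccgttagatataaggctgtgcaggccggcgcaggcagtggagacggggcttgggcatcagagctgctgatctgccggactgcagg
TATAAA was in 2 of the 10 windows, those of Kcnj13 and of another Otx2 start, against 8.32% of all 32851 windows. In that Otx2 window it begins 192 bases before the start. TAATCC was in 1 of the 10, against 7.06% of all windows. The palindromic glucocorticoid response element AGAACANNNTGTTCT, searched on both strands, was in none of the 10 and in 3 of all windows. The GC content of the printed windows was 46.0% for Kcnj13, 51.0% for Otx2 and 67.3% for Kl, with a median of 52.7% over all windows. These matches describe letters and not binding.

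The most abundant of the 10 genes were those of secreted proteins. Ttr (ENSMUSG00000061808, chromosome 18, 20665280 to 20674321, plus strand, GRCm38), which encodes the carrier of thyroxine and of retinol-binding protein in cerebrospinal fluid, had a mean of 9.98 log2 CPM in the dHPC and 8.63 in the vHPC. Back-transformed, these are 1012 and 397 CPM. Enpp2 (chromosome 15, 54838901 to 54952892, minus strand) encodes autotaxin, the secreted enzyme that makes lysophosphatidic acid, and had a mean of 9.61 log2 CPM (dHPC) and 8.95 (vHPC). Enpp2 is also a known transcript of oligodendrocytes. Sostdc1 (chromosome 12, 36314139 to 36318452, plus strand), a secreted antagonist of BMP and Wnt signalling, was lower, at 3.56 and 2.57 log2 CPM.

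Membrane proteins of the epithelium made up most of the other members. Kl (chromosome 5, 150952607 to 150993817, plus strand), whose product Klotho is a co-receptor of FGF23, had a mean of 6.18 log2 CPM in the dHPC and 5.69 in the vHPC. Prlr, the prolactin receptor (chromosome 15, 10177238 to 10349180, plus strand), had 3.61 and 4.14, and was the only one of the 10 with the higher mean in the vHPC. Folr1 (chromosome 7, 101858331 to 101870788, minus strand), the receptor that carries folate into cerebrospinal fluid, had 2.75 and 2.14. These means are not scaled by gene length. Per kilobase of exon, the scale used below, Kl had 2.96, Folr1 1.55 and Prlr -0.33 log2 CPM in the dHPC.

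Clic6, a chloride intracellular channel protein (chromosome 16, 92485736 to 92541243, plus strand), had a mean of 4.58 log2 CPM in the dHPC and 3.94 in the vHPC. Aqp1, the water channel of the apical membrane (chromosome 6, 55336432 to 55348555, plus strand), had 2.31 and 1.71. Kcnj13, the inward rectifier potassium channel Kir7.1 (chromosome 1, 87386363 to 87394729, minus strand), had 1.71 and 1.41. These were the lowest of the 10 in both regions before scaling by gene length. For Kcnj13, 49.1% of the exon length overlaps exons of Gigyf2 on the opposite strand. The library kit marked strand, but whether the authors' counting used it is not given in the sources used here, so the level of Kcnj13 is uncertain. Otx2, the homeobox factor that specifies and maintains choroid plexus epithelium (chromosome 14, 48657677 to 48673819, minus strand), had 2.73 and 1.70 log2 CPM. The exons of Enpp2, Prlr and Otx2 overlap those of other annotated genes over 5.97%, 1.32% and, for both neighbours of Otx2, 3.65% and 3.98% of their length.

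To compare levels between genes, the mean was taken per kilobase of exon, using the union of all annotated exons. On this scale the order in the dHPC was Ttr (9.74 log2 CPM per kilobase), Enpp2 (7.08), Kl (2.96), Sostdc1 (2.72), Clic6 (2.62), Folr1 (1.55), Kcnj13 (1.36), Aqp1 (0.92), Otx2 (0.65) and Prlr (-0.33). In the vHPC it was Ttr (8.39), Enpp2 (6.42), Kl (2.47), Clic6 (1.97), Sostdc1 (1.74), Kcnj13 (1.07), Folr1 (0.94), Aqp1 (0.32), Prlr (0.20) and Otx2 (-0.38). Ttr, Enpp2 and Kl held the first 3 places in both regions. Neighbours in either order cannot be said to differ, since the means carry no spread. Per kilobase Ttr exceeded Enpp2 6.30-fold in the dHPC and 3.90-fold in the vHPC, and exceeded Kl 110-fold and 60.3-fold. Among all genes of a region, Ttr lay at percentile 99.8 of this scale in the dHPC and 99.7 in the vHPC, and Enpp2 at 98.7 and 98.2. The other 8 lay between percentiles 22.1 and 68.2 in the dHPC and between 30.8 and 65.7 in the vHPC. Ranked only among genes of at least 1 log2 CPM, Ttr and Enpp2 stayed at percentile 97.4 or above, while the other 8 lay between 6.27 and 59.0 in the dHPC and between 5.81 and 49.4 in the vHPC. Prlr in the dHPC and Otx2 in the vHPC were the lowest on that ranking.

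**Figure D1:**
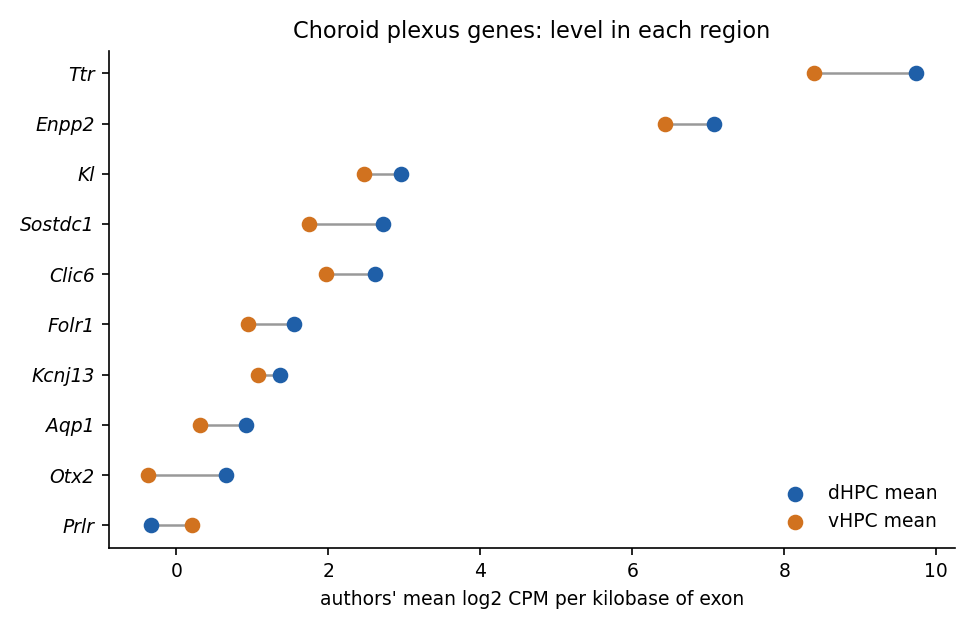
Level of each choroid plexus gene in the dHPC (blue) and the vHPC (orange), as the authors' mean log2 CPM per kilobase of exon on the x axis, 1 gene per row. The blue point lies to the right for every gene except Prlr, and Ttr has the widest gap, from 9.74 to 8.39.

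The 9 other members had lower means in the vHPC than in the dHPC. The regions were normalised and fitted separately by the authors, so each difference was centred on the median difference of the 18257 genes in both tables (-0.01 log2), and its percentile among these genes is given as a description. Ttr differed most, by -1.33 log2, a mean 2.52-fold higher in the dHPC, at percentile 0.455. Otx2 differed by -1.02 (percentile 1.16) and Sostdc1 by -0.97 (percentile 1.30), means 2.02-fold and 1.96-fold higher in the dHPC. These 3 lay well outside the middle 90% of all genes, which ran from -0.56 to 0.72. By the measure described further below, the residual spread of every member was unusually large among all genes in both regions. The percentiles of the differences take no account of that spread. Whether a few libraries gave the differences of the members was not tested.

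A second group lay close together. Enpp2 differed by -0.64, Clic6 by -0.63, Folr1 by -0.60 and Aqp1 by -0.59 (percentiles 3.70 to 4.57), which made Enpp2 1.56-fold higher in the dHPC. Kl (-0.47, percentile 7.27) and Kcnj13 (-0.28, percentile 17.6) differed least among the genes higher in the dHPC. Prlr had a difference of 0.55 (percentile 91.7), a mean 1.46-fold higher in the vHPC. The median over the 10 was -0.61. The differences ran from -1.33 to 0.55, and whether they differ from each other was not tested.

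A further list of 28 genes known from choroid plexus epithelium or its stroma, of which 27 were measured in both regions, gave a median difference of -0.46. Of these, 23 were lower and 4 higher in the vHPC. Ecrg4, which encodes a secreted peptide precursor of the epithelium, had the lowest difference (-1.29, from 3.90 to 2.60 log2 CPM). Car12, a carbonic anhydrase, had the highest (0.58, from 5.32 to 5.89). Kcne2, a potassium channel subunit, differed by -0.93, and Cldn2, the claudin of leaky epithelial junctions, by -0.06. Slc13a4, a sulfate transporter, Ace, the angiotensin-converting enzyme, and Col8a1, a collagen chain, were the other 3 that were higher in the vHPC, with differences of at most 0.08.

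Markers of other cells differed between the regions too. Ependymal cells, the ciliated lining of the ventricle, had a median difference of -0.48 over 15 genes, from -0.96 for Dynlrb2 to 0.52 for Dnah12. Foxj1, their master regulator of motile cilia, differed by -0.88. Oligodendrocyte markers had a median of -1.14 over 10 genes, from -1.38 for Mobp to -0.82 for Ugt8a, all 10 lower in the vHPC. Their part in the difference of Enpp2, a gene these cells also express, was not tested. Meningeal fibroblast markers went the other way, with all 15 higher in the vHPC, a median of 0.44, and a range from 0.12 for Aldh1a2 to 2.15 for Dcn. The lowest means in the ependymal, oligodendrocyte and meningeal lists were -2.16, 5.01 and 0.38 log2 CPM in the dHPC. In the vHPC they were -2.67, 3.83 and 0.52.

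Lists of cells within the tissue had median differences of 0.25 for endothelial markers (Ly6c1 -0.01 to Flt1 0.52), -0.00 for astrocytes (Gfap -0.24 to Fgfr3 0.46), -0.21 for microglia (C1qa -0.55 to Cx3cr1 0.05), -0.40 for excitatory neurons (Prox1 -0.62 to Calb1 0.13) and 0.13 for interneurons (Pvalb -0.63 to Reln 0.68). By sign alone the region markers went the way of the labels, though Coch differed little. The region marker lists, like all lists here, were chosen with earlier results of these data known. All 4 dorsal markers were lower in the vHPC, from -2.23 for Lct to -0.54 for Gsg1l, and all 4 ventral markers were higher, from 0.06 for Coch to 3.48 for Trhr. The part of these lists in the differences of the choroid plexus genes was not tested.

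**Figure D2:**
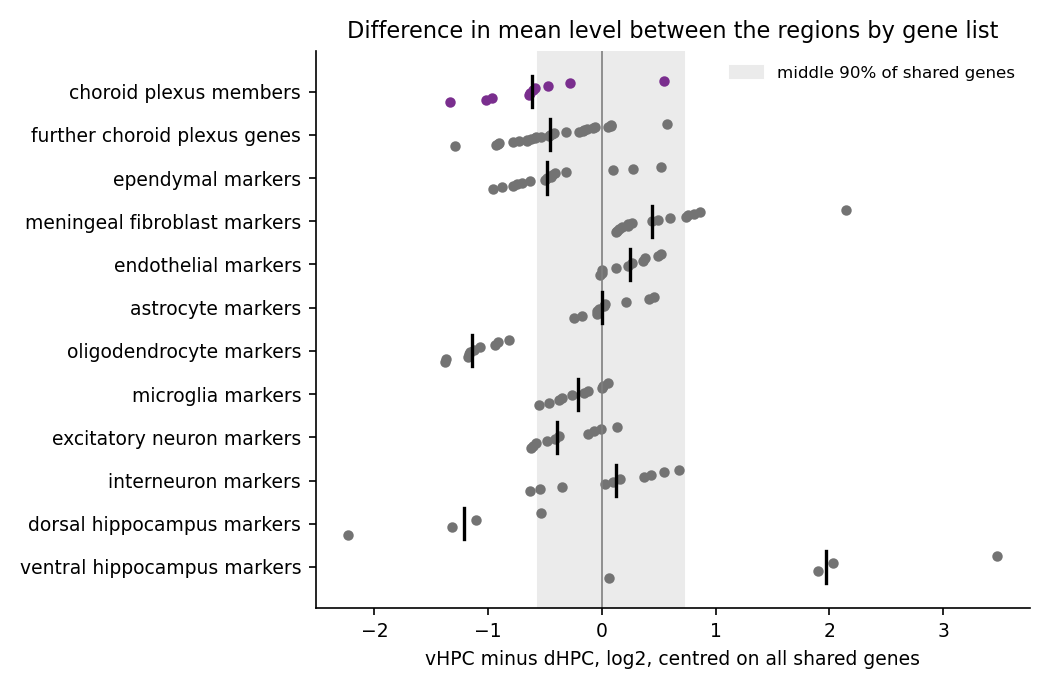
Difference in the authors' mean level between the regions (vHPC minus dHPC, log2, centred on the 18257 shared genes) on the x axis, 1 point per gene and 1 row per gene list, with a black bar at the list's median and grey shading over the middle 90% of genes. The choroid plexus genes (purple) have a median of -0.61 with Prlr alone to the right of 0, the oligodendrocyte markers lie further left (median -1.14) and the meningeal markers lie to the right (median 0.44).

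The degrees of freedom of the authors' fit can show, in steps, whether the residual spread of a gene was unusually large among all genes. They do not give the size of that spread. Limma lends each gene prior degrees of freedom from the pool of all genes, and in its robust form a gene whose residual spread is unusually large gets fewer. The prior degrees of freedom were the total minus the residual degrees of freedom of a gene. They differed between genes, as the robust form gives, although the sources used here do not name that form. The largest value, which most genes share, was 4.56 for dHPC and 4.73 for vHPC. The measure does not tell a single aberrant library from a general scatter, nor which group scattered.

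The prior was reduced for all 10 genes in both regions, against 14.9% of all genes in the dHPC and 15.3% in the vHPC whose prior was below the largest by more than 0.01. Under the stricter rule of a prior under 50% of the largest, all 10 were again called in both regions, against 2.06% of all genes in the dHPC and 2.84% in the vHPC. With a reduction of more than 1 the background was 6.37% and 7.55%. Among genes of at least 1 log2 CPM, which include all 10, 14.8% and 17.7% were called. The members stand far down in this distribution, which their counts alone do not show.

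Ttr had the lowest prior degrees of freedom of all genes in both regions, 0.32 of 4.56 in the dHPC (7.07% of the largest) and 0.16 of 4.73 in the vHPC (3.29%). In the dHPC the 9 others shared one value, 0.67 (14.7%), with 21 further genes, so that 31 of 18283 genes lay at or below it. In the vHPC Enpp2 followed Ttr at 0.23 (4.93%). Aqp1, Clic6, Folr1, Kl and Prlr shared 0.24 (5.06%), Kcnj13 had 0.34 (7.27%), and Otx2 and Sostdc1 had 0.37 (7.88%). There 33 of 21088 genes lay at or below the highest value of a member. Prlr, which alone was higher in the vHPC, had as low a prior as Kl and Folr1. The reduction was thus found from Ttr at 9.98 log2 CPM down to Kcnj13 at 1.71, and not at one level of expression.

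**Figure D3:**
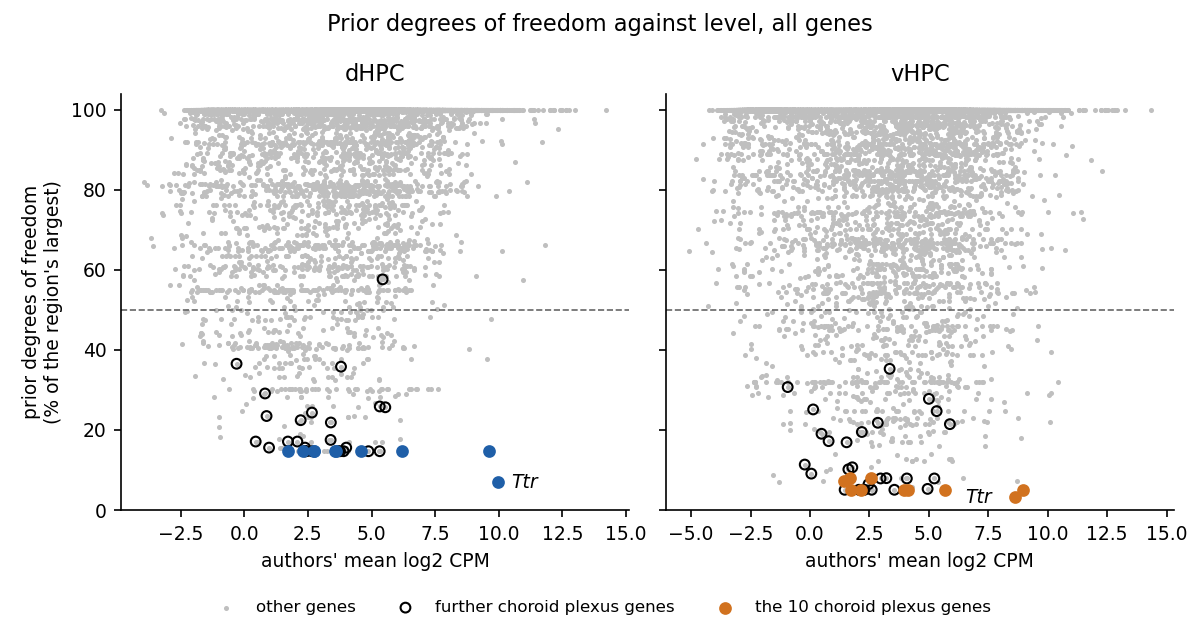
Prior degrees of freedom as a percentage of the region's largest value (y axis) against the authors' mean log2 CPM (x axis) for all genes (grey), the 10 choroid plexus genes (filled) and further choroid plexus genes (open circles), for the dHPC (left) and the vHPC (right). The 10 genes lie along the lower edge, between 7.07% and 14.7% (dHPC) or 3.29% and 7.88% (vHPC), below the dashed line at 50%.

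Of the 31 genes at or below the members' highest value in the dHPC, 10 were the members, 10 came from the further choroid plexus list and 11 from neither. In the vHPC the 33 comprised the members, 11 further choroid plexus genes and 12 from neither, among them the meningeal marker Fmod. Among 13882 genes of at least 1 log2 CPM in both regions, the 15 with the lowest prior summed over both regions were Ttr, Enpp2, Aqp1, Cldn2, Clic6, Ecrg4, F5, Folr1, Kcne2, Kl, Mfrp, Prlr, Slc4a5, Tmem72 and Ace. The 12 genes from Aqp1 to Tmem72 were tied at 0.91, after Ttr at 0.48 and Enpp2 at 0.90. By this measure of likeness, over 2 regions, 7 of the 15 were members, 7 were further choroid plexus genes (Cldn2, Ecrg4, F5, which encodes coagulation factor V, Kcne2, the bicarbonate transporter Slc4a5, Tmem72 and Ace) and 1, Mfrp, was in no list. Kcnj13 came 18th with a sum of 1.01, and Otx2 and Sostdc1 were among the 7 genes tied next at 1.04.

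Among all shared genes 11.0% had a reduced prior in both regions. All 27 measured genes of the further list did, and 26 of 27 had one under 50% of the largest in both. Besides those named above they included the transporters Slc2a12, Slc16a8 and Slc29a4, the calcium channel Trpv4, the keratins Krt8 and Krt18, the transcription factors Lmx1a and Msx1, the retinol dehydrogenase Rdh5, the binding proteins Igfbp2 and Lbp, and Cab39l, Calml4, Sema3b, Steap1 and Wfdc2. Slc29a4, a monoamine transporter also found in neurons, was the exception, at 57.6% of the largest in the dHPC. The list's median was 17.1% in the dHPC and 10.2% in the vHPC, against 14.7% and 5.06% for the 10 members. In a single region, a prior under 50% was found in 2.06% (dHPC) and 2.84% (vHPC) of all genes. The further list was chosen with earlier results of these data known, so its counts are not independent of them.

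By the median of a list, the prior was reduced less in other cell types. Ependymal markers had a median of 36.6% of the largest in the dHPC and 45.0% in the vHPC, and all but Mia were called in both regions. Meningeal markers had 66.3% and 21.4%, and all but Osr1 were called in both. Of the meningeal markers, Fmod reached the range of the members in the vHPC, at 7.88%, as Otx2 and Sostdc1 had. Dcn lay just above that range, at 7.96%. Oligodendrocyte markers had 61.9% and 32.3%, and all 10 (among them Mobp, Mbp, Cldn11, Mog and Ugt8a) were called in both. The median of the meningeal and oligodendrocyte lists was thus lower in the vHPC, that of the ependymal list was not.

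Markers of endothelial cells, astrocytes, microglia and neurons stood near the largest value in the dHPC, and microglia and excitatory neurons stood lower in the vHPC. In the dHPC the medians were 98.3% for endothelial cells, 99.0% for astrocytes, 100% for microglia, 90.5% for excitatory neurons and 99.4% for interneurons, and in the vHPC 93.5%, 89.6%, 58.6%, 77.2% and 89.3%. In the dHPC 5 of 10 endothelial markers, 5 of 10 of astrocytes, 2 of 10 of microglia, 5 of 10 of excitatory neurons and 5 of 10 of interneurons were called. In the vHPC the counts were 6, 7, 10, 8 and 5 of 10. Of all 18257 shared genes, 11.0% were called in both regions. Called in both were 3 of 10 endothelial markers (Tek, Abcb1a, Flt1), 4 of 10 of astrocytes (Slc1a2, Gjb6, Gfap, Aqp4), 2 of 10 of microglia (P2ry12, Cx3cr1), 5 of 10 of excitatory neurons (among them Prox1, Neurod6, Spink8) and 4 of 10 of interneurons (Npy, Vip, Pvalb, Sst). So were Lct and Wfs1 of the dorsal and Nr2f2, Coch and Grp of the ventral markers. The part of any of these cells in the spread of the choroid plexus genes was not tested.

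**Figure D4:**
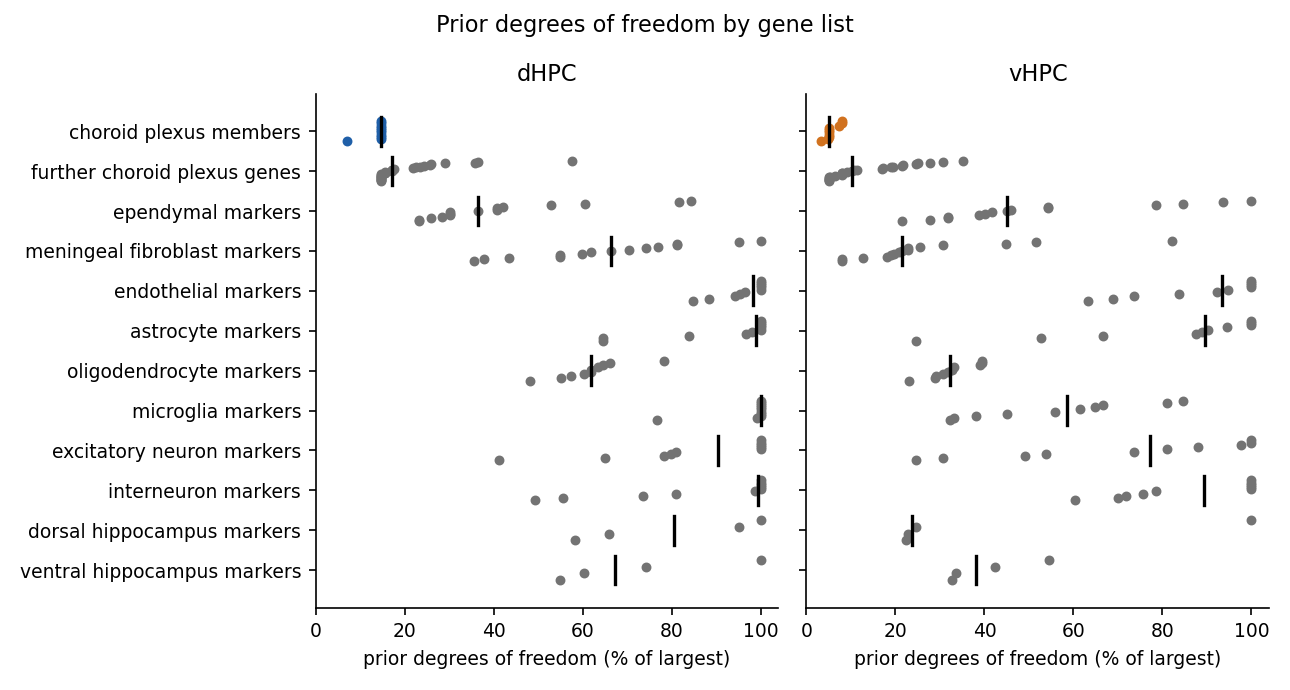
Prior degrees of freedom as a percentage of the region's largest value (x axis) for every gene of each list (rows), in the dHPC (left) and the vHPC (right), 1 point per gene, with a black bar at the list's median. The 10 choroid plexus genes (coloured) have the lowest median in both regions, 14.7% and 5.06%, followed by the further choroid plexus genes at 17.1% and 10.2%.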

How the data were processed

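RNA of dHPC and vHPC was sequenced as 75-bp single-end reads from stranded libraries. The authors discarded reads of low quality, aligned the rest to GRCm38 with STAR, counted them per gene with featureCounts and fitted limma-voom within a region, in versions not given in the sources used here. The 8 deposited tables hold the authors' mean expression in log2 CPM, the degrees of freedom of the fit (another deposited unit), and the authors' own comparisons of CORT with vehicle (fold change, standard error, t, p and adjusted p). The comparison columns were used in no step. The mean and the degrees of freedom were the same in all 4 tables of a region to within 5e-06. They hold no value per library and no depth. Residual degrees of freedom were 24 in the dHPC, as 32 libraries in 8 groups give, and 22 in the vHPC. Whether the vHPC fit left out 2 libraries or held 2 more terms cannot be told apart.

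Differences between the regions, prior degrees of freedom and percentiles were computed with Python 3.11.15, numpy 2.4.6 and pandas 2.3.3. Exon lengths came from GENCODE M21 (GRCm38), found for 99.8% of genes in each region. The reading of the prior was tested on simulated data with limma 3.58.1 under R 4.3.3. There the loosest rule for a reduced prior also took in genes with no added spread. The simulation assumed the robust form and had no voom weights, so it cannot test the authors' own fit. No test between groups was made. The text names all 10 members, the highest and lowest gene of each list by difference, those with a reduced prior in both regions, and the 15 genes of lowest summed prior at a mean of at least 1 log2 CPM. Some genes that this rule selects are not reported here. Foxj1 and Slc29a4 were singled out after their values were seen, as were Kcne2, Cldn2 and the genes of the closing observations. The 10 members and all lists were chosen with earlier results of these data known. Alternatives were the longest transcript as gene length, only genes of at least 1 log2 CPM, other centrings, and 2 stricter rules for a reduced prior.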

Additional observations from a re-analysis of the deposited data

How the results depend on the processing

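No paired analysis was possible because the tables hold means over libraries and no value per library, and leaving out a library could not be run for the same reason. Under the stricter rules all 10 genes were called in both regions. The share of all genes called dropped to 6.37% (dHPC) and 7.55% (vHPC) with a reduction of more than 1. It dropped to 2.06% and 2.84% with a prior under 50% of the largest. Keeping only genes of at least 1 log2 CPM could not change the call of a member, since all 10 pass that limit. Without centring, and centred on genes of at least 1 log2 CPM, the median over the 10 genes was -0.63 and -0.61. The medians subtracted were only -0.014 (all shared genes) and -0.020 (at least 1 log2 CPM), so no member's difference could change sign. With the longest transcript as length the percentiles moved by at most 6.68, and the order per kilobase changed places among Folr1, Sostdc1, Kcnj13, Aqp1, Otx2 and Prlr. Among genes of at least 1 log2 CPM alone the percentiles of all members but Ttr, Enpp2 and, in the dHPC, Kl dropped by more than 10 points. What limits the report is that levels have no error, that spread is known only relative to other genes, and that sexes, genotypes and treatments are averaged.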

Other observations

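Genes outside the choroid plexus lists also had very low prior degrees of freedom in both regions, among genes of at least 1 log2 CPM. The lists do not hold every choroid plexus gene, and in which cells the genes below are expressed was not tested. Sulf1 had 0.67 in the dHPC and 0.28 in the vHPC, and Abca4, Col8a2 and Drc7 each had 0.67 and 0.37. Tshz2 had 0.78 in the dHPC and 0.33 in the vHPC, and Vat1l had 0.67 and 0.75. In the dHPC Calb2, Syt9 and Zic1 also had 0.67, the value shared by most of the members. Slc17a6, the vesicular glutamate transporter typical of thalamic neurons, had 0.67 and 0.82, and a centred difference between the regions of -1.16 log2. Htr2c, the serotonin receptor first known from choroid plexus and also made by neurons, had 0.78 and 1.04 and a mean higher in the vHPC by 1.08 log2. The globin genes Hba-a1, Hba-a2, Hbb-bs and Hbb-bt of red blood cells had between 1.30 and 1.35 in the dHPC and between 0.58 and 0.66 in the vHPC.

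Prl, the prolactin transcript, had a prior of 0.33 in the vHPC at a mean of -1.29 log2 CPM, and Ptgds, the prostaglandin D synthase of meninges and choroid plexus, had 0.34 in the vHPC at 8.71 log2 CPM.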
